A study of Mus musculus with 45 samples.

Results

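The genes described here encode the collagens, the laminins and the ADAMTS proteases with their non-catalytic relatives. They were taken by symbol, as every gene that begins with Col and a chain number, with Lama, Lamb or Lamc and a digit, or with Adamts. The rule found 72 of the 11220 genes in the deposited table. Col4a3bp, which encodes a ceramide transporter, matched by spelling alone and was set aside, which left 71 genes of the extracellular matrix. They comprised 11 fibrillar collagens, 5 basement membrane network collagens, 10 genes of collagen VI and of the beaded, anchoring and short-chain types, 9 fibril-associated collagens, 6 transmembrane collagens and multiplexins, 10 laminins, 16 ADAMTS proteases and 4 ADAMTS-like proteins. Lamb1, Col4a3, Col10a1, Col28a1, Adamts7, Adamts13, Adamts16 and Adamtsl5 were not analysed here.

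Mouse embryonic stem cells were differentiated towards spinal sensory interneurons, and bulk RNA was sequenced in 45 libraries, 3 in each of 15 groups. D0 was the undifferentiated culture on day 0. D3 was the culture on day 3, after basic fibroblast growth factor (bFGF) and the GSK3 inhibitor CHIR had been used to direct neuromesodermal progenitors, the bipotent cells of the embryonic tail bud. All later groups descend from that culture and received 100 nM retinoic acid (RA), so that no group after day 3 lacks RA. R4, R6hr, R5, R7 and R9 received RA alone and were collected on days 4, 4.25, 5, 7 and 9. In the B groups RA alone was followed by a 24-hour pulse of RA with 10 ng/ml of bone morphogenetic protein 4 (BMP4): B6hr was collected 6 hours into the pulse, on day 4.25, and B5, B7 and B9 on days 5, 7 and 9. In the M groups RA and BMP4 were given together for 48 hours from day 3, and M4, M5, M7 and M9 were collected on days 4, 5, 7 and 9. The labels call the last condition M in the titles and C in the treatment text, and state the end of the RA treatment as day 4 in one place while giving its length as 48 hours. The series' design text gives 3 independent differentiations, and the labels name neither the stem cell line nor what a replicate number marks.

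Collagens are secreted or membrane-bound proteins in which 3 chains wind into a triple helix. Fibrillar collagens build the fibrils of connective tissue, collagen IV forms the sheet of basement membranes, and fibril-associated collagens decorate fibril surfaces. Laminins are alpha-beta-gamma trimers that assemble on the cell surface and nucleate the basement membrane, which in the embryonic spinal cord surrounds the neural tube. ADAMTS proteases are secreted metalloproteases. Adamts2, Adamts3 and Adamts14 trim the amino-terminal propeptide from fibrillar procollagens, and Adamts1, Adamts4, Adamts5, Adamts8, Adamts9, Adamts15 and Adamts20 cleave large chondroitin sulfate proteoglycans such as versican and aggrecan. BMP4 signals through SMAD proteins and RA through nuclear receptors.

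The start regions of 6 genes that are named in the results below are shown as a description, and their part in those results was not tested. Col4a1 and Col4a2 are transcribed away from each other on chromosome 8, and so are Col4a5 and Col4a6 on the X chromosome. Col13a1 and Adamts2 were called higher in the combined treatment than in both other treatments on days 5, 7 and 9. Sequences are from RefSeq on GRCm38.p6, the same assembly as mm10, each written 5′ to 3′ on the strand of its gene and ending at the base before the start site. Capitals mark matches on either strand to CCAAT, to the GC box GGGCGG, to GGCGCC, the palindrome that SMAD1 and SMAD5 bind, or to AGGTCA, the half-site of nuclear receptors. No base belonged to more than 1 match. The RefSeq start sites of Col4a1 (minus strand) and Col4a2 (plus strand) lie 21 bases apart, and the 22 bases that both transcripts share are written on the plus strand.
Col4a1 and Col4a2, chr8:11312805-11312826: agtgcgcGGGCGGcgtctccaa
Col4a5, chrX:141475169-141475418, plus strand: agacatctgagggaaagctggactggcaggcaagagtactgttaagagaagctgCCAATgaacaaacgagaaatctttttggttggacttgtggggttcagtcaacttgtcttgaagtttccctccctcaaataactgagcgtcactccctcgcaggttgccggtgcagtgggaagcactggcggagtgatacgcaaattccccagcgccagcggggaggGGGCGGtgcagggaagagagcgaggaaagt
Col4a6, chrX:141474077-141474326, minus strand: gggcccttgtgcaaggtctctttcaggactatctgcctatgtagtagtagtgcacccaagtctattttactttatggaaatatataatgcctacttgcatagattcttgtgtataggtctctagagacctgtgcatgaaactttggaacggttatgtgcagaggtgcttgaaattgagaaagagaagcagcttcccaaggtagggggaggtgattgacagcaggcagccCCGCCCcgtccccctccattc
Col13a1, chr10:61979109-61979358, minus strand: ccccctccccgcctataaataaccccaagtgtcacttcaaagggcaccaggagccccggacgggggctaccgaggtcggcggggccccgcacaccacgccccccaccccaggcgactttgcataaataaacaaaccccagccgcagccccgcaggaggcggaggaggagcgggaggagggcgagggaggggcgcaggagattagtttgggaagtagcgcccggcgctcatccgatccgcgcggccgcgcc
Adamts2, chr11:50601835-50602084, plus strand: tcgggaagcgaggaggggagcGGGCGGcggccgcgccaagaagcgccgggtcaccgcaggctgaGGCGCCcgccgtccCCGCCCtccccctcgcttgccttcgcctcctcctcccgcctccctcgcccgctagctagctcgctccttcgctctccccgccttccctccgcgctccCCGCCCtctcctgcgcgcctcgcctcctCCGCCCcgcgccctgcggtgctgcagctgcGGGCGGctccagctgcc

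Over this 250-base window the Adamts2 sequence held 5 GC boxes and 1 GGCGCC, while the Col13a1 window held none of the 4 motifs. Col4a5 held 1 CCAAT and 1 GC box, and Col4a6 held 1 GC box. The window differed in composition within the X-linked pair: 54% of bases were G or C for Col4a5, with 10 CpG dinucleotides, against 47.6% and 3 for Col4a6. RefSeq promoters were found for 49 of the 71 genes (53 start sites, since some genes have several). Of these, 33 held a GC box (62.3%, against 32.7% of all 32851 promoters), 15 held CCAAT (28.3% against 33.8%), 8 held GGCGCC (15.1% against 9.59%) and 8 held AGGTCA (15.1% against 14%). These are counts of letters in a window and say nothing about binding.

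The values are the authors' normalized expression levels, which are not whole counts and are not divided by gene length, so levels are compared between libraries and not between genes. The levels of all genes summed to between 12245725 and 15868724 per library, and no value was 0. The labels state 30000000 reads per sample, and the depth reached in each library is not shown by the table. The table is a selection of genes that changed: in the authors' deposited table each passed a limit of 0.1 on the adjusted p in 1 or more of 12 comparisons. Tests were made with limma on log2(level + 1) over all 45 libraries, adjusted over the 11220 genes, and a gene was called at an adjusted p under 0.05. Each fold change is given as a log2 change on that scale, with its standard error (SE). Some genes were named because they were called and their groups did not overlap. For those genes the absence of overlap describes the values and is no further support. The median within-group standard deviation of the 71 genes was 0.56 on the log2 scale.

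Some libraries stood apart from the others of their group across the matrix genes. D3 replicate 1 lay below its group's mean log2 level for 62 of the 71 genes, R9 replicate 3 for 60, R4 replicate 2 and R7 replicate 3 for 59 each, and R5 replicate 1 and B5 replicate 2 for 58 each. In the other direction, 7 genes lay below the group mean in M4 replicate 1, 8 in B5 replicate 1 and 8 in R9 replicate 1. D0 replicate 3 differed from the other D0 libraries in cell markers: Pou5f1, the pluripotency factor Oct4, stood at 3064, 2678 and 22336 in replicates 1, 2 and 3. In D3 the primitive streak and tail bud factor T stood at 14602 in replicate 1 and at 933 and 706 in replicates 2 and 3. The study's groups are bulk cultures, in which fewer cells of a type and less RNA per cell cannot be told apart.

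Markers of other cell types moved with the treatments. The summed level of 5 lateral mesoderm and mesenchyme markers (Hand1, Hand2, Foxf1, Pdgfra and Twist1) lay between 2871 and 5357 in R5, between 5894 and 9702 in B5 and between 14714.5 and 22148 in M5. On day 9 it lay between 1013 and 2327 in R9, between 1472 and 4113 in B9 and between 6730 and 11881 in M9. The sum of 5 neural progenitor markers (Sox1, Sox2, Sox3, Pax6 and Nes) moved the other way, from 21313 to 28249 in R5 against 2266 to 4069 in M5, and from 17541 to 19744 in R9 against 4872 to 5298 in M9. Neuronal markers (Tubb3, Elavl3, Stmn2, Snap25 and Ina) summed to between 33427 and 43012 in B7, above every other group. All 5 of 5 markers of each list were measured, and none was at 0 in any library. Their part in the results below was not tested.

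**Figure D1:**
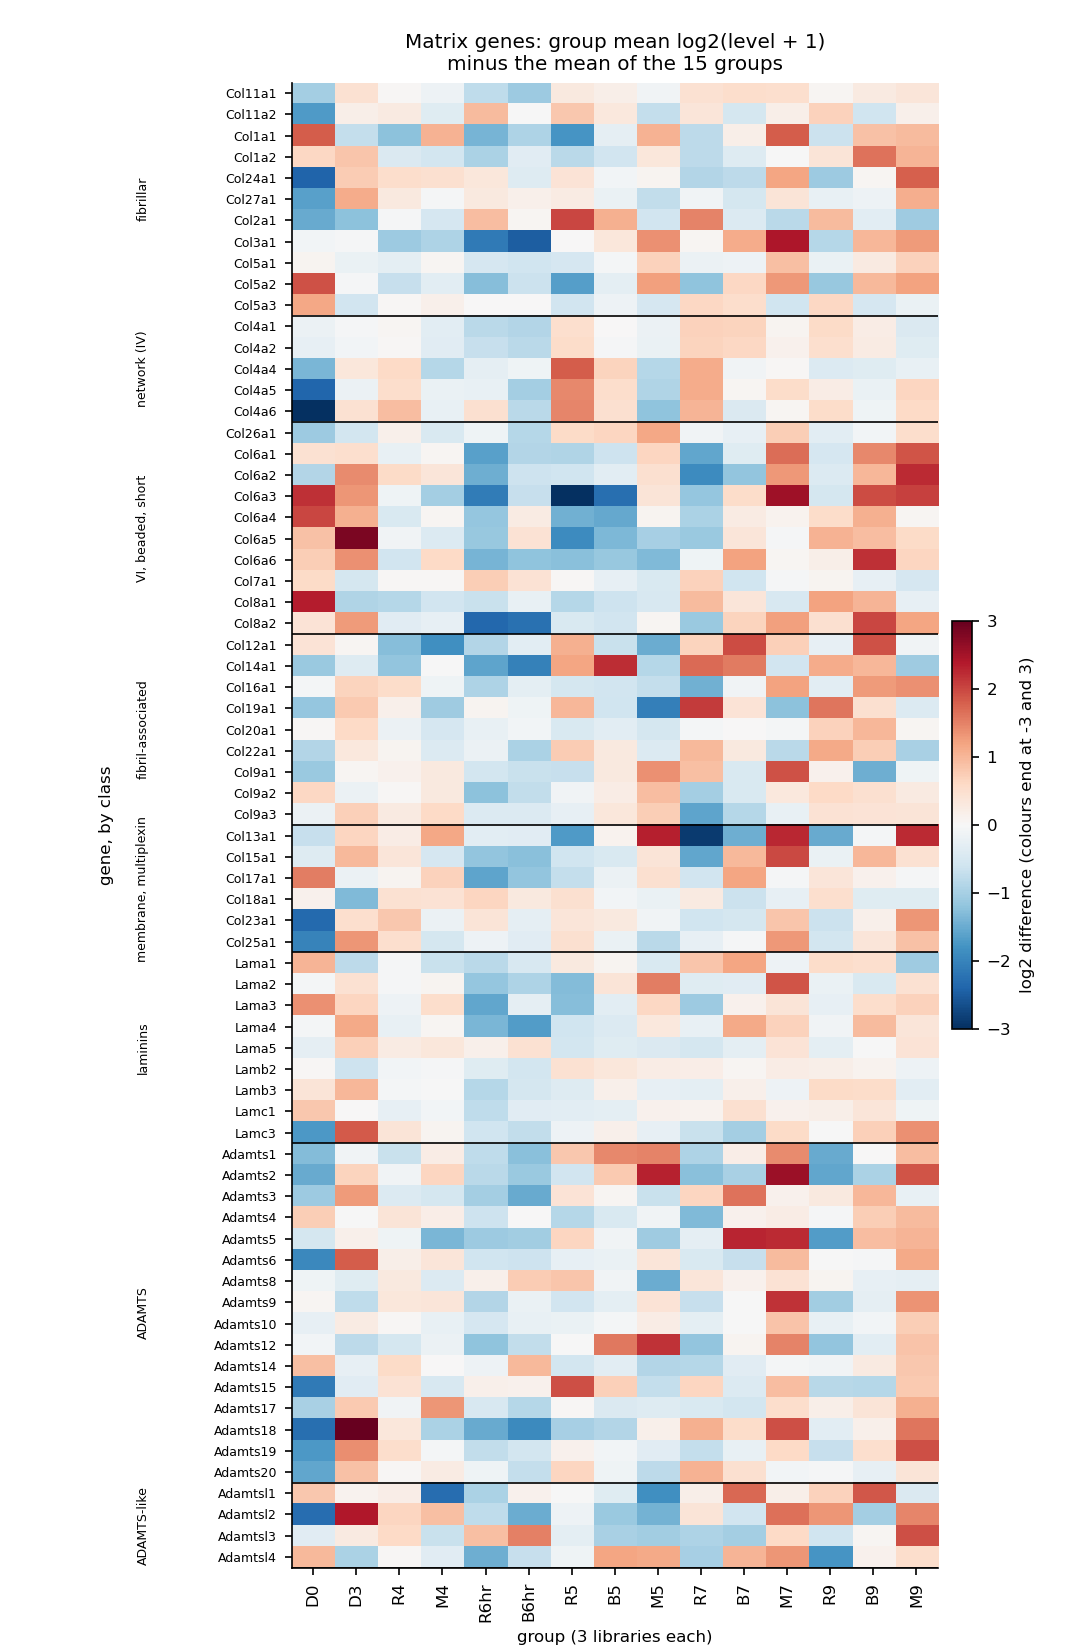
Group means of log2(level + 1) for the matrix genes named here (rows, by class) in the 15 groups (columns, 3 libraries each), each row shown as the difference from the mean of its 15 groups. Red is above and blue below that mean, with colours ending at -3 and 3. Of the 71 genes, 24 had their highest group mean in an M group, 12 in D3 and 9 in D0, with no such count over all genes given.

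The heat map of group means shows where each gene peaked. The M groups held the highest mean of 24 genes, among them Col13a1, Col3a1, Col5a1, Col6a1, Col6a2, Col6a3, Lama2, Adamts2 and Adamts9. D3 held the highest mean of 12, among them Adamts6, Adamts18, Lama4 and Lama5. D0 held that of 9, among them Col1a1, Col5a2, Col5a3, Col6a4, Col8a1, Col17a1, Lama3 and Lamc1. The place of Col17a1 rested on D0 replicate 3: it stood at 32.3, 25.9 and 95.9 in D0, against a B7 mean of 34.0. Such counts over all genes are not given here, so whether these are particular to the matrix genes was not tested. The R groups at days 5 and 7 held the highest means of all 5 network collagens, Col4a1 and Col4a2 in R7 and Col4a4, Col4a5 and Col4a6 in R5, and also those of Col2a1 in R5 and Col19a1 in R7. The difference between a gene's highest and lowest group mean ran from 1.08 (Lamb2) to 5.68 (Col6a3) on the log2 scale.

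The first step, from the D0 to the D3 cultures, moved matrix genes in both directions. Of the 71 genes 28 rose and 15 fell, where 54.9% of all genes were called, and the median log2 change was 0.63 against 0.07 over all genes. Of 16 ADAMTS proteases 8 rose and 2 fell (62.5% called), and all 6 transmembrane collagens and multiplexins were called (4 rose and 2 fell). Laminins were divided, with 3 higher and 4 lower of 10. Leaving out D0 replicate 3 and D3 replicate 1 together, a check added after the data were seen, gave 32 higher and 7 lower, with 35 of the 43 calls kept. The libraries left out were the D0 library of highest Pou5f1 and the D3 library of highest T, given above. The check therefore compares the libraries with less of these markers and cannot tell which libraries match their labels. Another scaling of the libraries (quantile normalization) moved the median change of all genes from 0.07 to -0.05 here and gave 27 higher and 17 lower.

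Adamts18, an ADAMTS protease with few known substrates, stood at 34.6, 17.1 and 9.27 in D0 and at 255, 941 and 1623 in D3, a log2 change of 5.28 (SE 0.69, adjusted p = 9.4e-08). Every D3 library was above every D0 library, with D3 replicate 1 the lowest of its group. Adamtsl2, a secreted protein that binds fibrillin, rose from 3.34, 1.23 and 4.31 to 54.4, 170.3 and 89.2, a change of 4.68 (SE 0.52, adjusted p = 4.2e-09). Adamts6, a protease of the fibrillin microfibril, changed by 3.77 (SE 0.44, adjusted p = 9.3e-09). Lamc3, the gamma-3 laminin chain, rose from 10.5, 4.1 and 8.82 to 54.2, 140.1 and 124 (3.57, SE 0.39, adjusted p = 2.7e-09), and Lama5, the alpha-5 chain, rose by 0.98 (SE 0.22, adjusted p = 3.1e-04).

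The falls from day 0 to day 3 included basement membrane genes. Lama1, the alpha chain of laminin-111, stood at 9463, 7198 and 8426 in D0 and at 1419, 2694 and 3482 in D3, a log2 change of -1.81 (SE 0.30, adjusted p = 6.7e-06) with no overlap. Col18a1, the heparan sulfate proteoglycan collagen from which endostatin is cut, fell from 13279, 12847 and 15687 to 7750.3, 3748 and 4427 (-1.46, SE 0.18, adjusted p = 2.2e-08), and D3 replicate 1 was the highest of its group. Col8a1, a short-chain collagen of vessel walls and cornea, fell from 206, 189.9 and 114 to 2.84, 23.4 and 53.9 (-3.26, SE 0.64, adjusted p = 6.6e-05). Lamc1, the gamma-1 laminin chain, was also called lower (-0.79), but its adjusted p was 0.13 without D0 replicate 3 and D3 replicate 1 together and 0.067 in a fit of the 6 libraries alone, over a range from 1.6e-04 to 0.13.

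Col1a1, the alpha-1 chain of type I collagen, rested on single libraries in this step. It stood at 9594, 9732 and 3401 in D0 and at 229, 2369.7 and 3003 in D3. D0 replicate 3 and D3 replicate 1 were the lowest of their groups, and no D3 library reached a D0 library. The log2 change was -2.53 (SE 0.71, adjusted p = 0.0029), and without D3 replicate 1 the adjusted p was 0.081, within a range over 14 alternatives from 6.7e-04 to 0.096. Col3a1, the type III chain, stood at 4298, 5027 and 484 in D0 and at 252, 5975 and 7839.6 in D3 and was not called in any of the 16 comparisons between groups.

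From day 3 to day 4, when RA was given, more matrix genes fell than rose. In R4 over D3 2 of the 71 genes rose and 12 fell, where 24.3% of all genes were called, and the median log2 change was -0.42 against -0.01 for all genes. With quantile normalization 6 rose and 12 fell. The count depended on the D3 libraries: 31 genes were called without D3 replicate 1 (2 higher and 29 lower) and 6 without D3 replicate 2. Col18a1 rose from 7750.3, 3748 and 4427 to 18575, 20849 and 13367, a change of 1.78 (SE 0.18, adjusted p = 3.5e-09) with all R4 libraries above all D3 libraries and a range that overlapped that of D0. Col6a5, a chain of collagen VI, fell from 60.7, 129.9 and 201 to 27.6, 12.1 and 8.87 (-2.93, SE 0.55, adjusted p = 1.3e-04), and Adamts6 fell by 1.65 on the log2 scale (adjusted p = 0.0051).

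Adding BMP4 to RA from day 3 had moved few matrix genes after 1 day. In M4 over R4, 3 of the 71 genes were higher and 3 lower, where 14.1% of all genes were called (6.76% higher and 7.37% lower). The 3 lower were Adamtsl1 (-2.48, SE 0.71, adjusted p = 0.016), whose groups overlapped, Col4a4 (-1.46, SE 0.39, adjusted p = 0.0087) and Adamts8 (-0.70, SE 0.19, adjusted p = 0.012). Without M4 replicate 3 the count was 3, all higher, so none of the lower calls was kept. Col13a1, a transmembrane collagen of cell adhesion sites and the neuromuscular junction, stood at 327, 372 and 378 in R4 and at 781, 615 and 684 in M4, with no overlap, a change of 0.94 (SE 0.23, adjusted p = 0.0052). Adamts17, a protease linked to fibrillin, rose from 170.1, 171 and 193 to 719, 402 and 386 (1.43, SE 0.30, adjusted p = 0.0013). Col1a1 was called higher at 2.28 (SE 0.71, adjusted p = 0.027), but the call ended under 4 of 13 alternatives, with an adjusted p of 0.18 without R4 replicate 2, 0.10 without M4 replicate 1 and 0.083 without M4 replicate 2, over a range from 0.022 to 0.18.

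After 6 hours of the BMP4 pulse, same-numbered libraries of R6hr and B6hr deviated together. The count of called genes depended both on a block for that number and on which libraries were fitted. The labels do not say what the number marks, and the block with 6 libraries was chosen after seeing the data. In B6hr over R6hr limma called 0 of the 71 genes, where 0.0178% of all genes were called, and 12 of the 71 had an unadjusted p under 0.05. In the authors' deposited table none of the 71 genes passed a false discovery rate of 0.05 in this comparison. With the replicate number as a block in a fit of these 6 libraries alone, 12 genes were higher and 13 lower, where 25.9% of all genes were called. With the block in the fit of all libraries the count stayed at 0, and in the 6 libraries without a block it was 5, all lower.

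The genes of lowest adjusted p in the blocked fit of 6 libraries were the network collagens Col4a6 and Col4a5 and the fibrillar collagen Col2a1, followed by Col26a1. Col4a6 stood at 1252, 1476 and 1231 in R6hr and at 440.1, 557 and 614 in B6hr. The groups did not overlap, and the blocked change was -1.30 (SE 0.10, adjusted p = 0.00029). Col2a1, the cartilage collagen that is also made by the early neural tube and notochord, stood at 3593, 5931 and 7709 in R6hr and 1838, 3014 and 4901 in B6hr. These groups overlapped, but B6hr was the lower within each replicate number, and the blocked change was -0.87 (SE 0.07, adjusted p = 0.00032). Col4a5 changed by -0.80 and Col26a1 by -0.73 in the same fit. Among the 12 higher genes Col6a3, Adamts14 and Adamtsl1 had changes of 1.41, 1.11 and 1.07. None of these changes passed in the fit over all libraries.

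**Figure D2:**
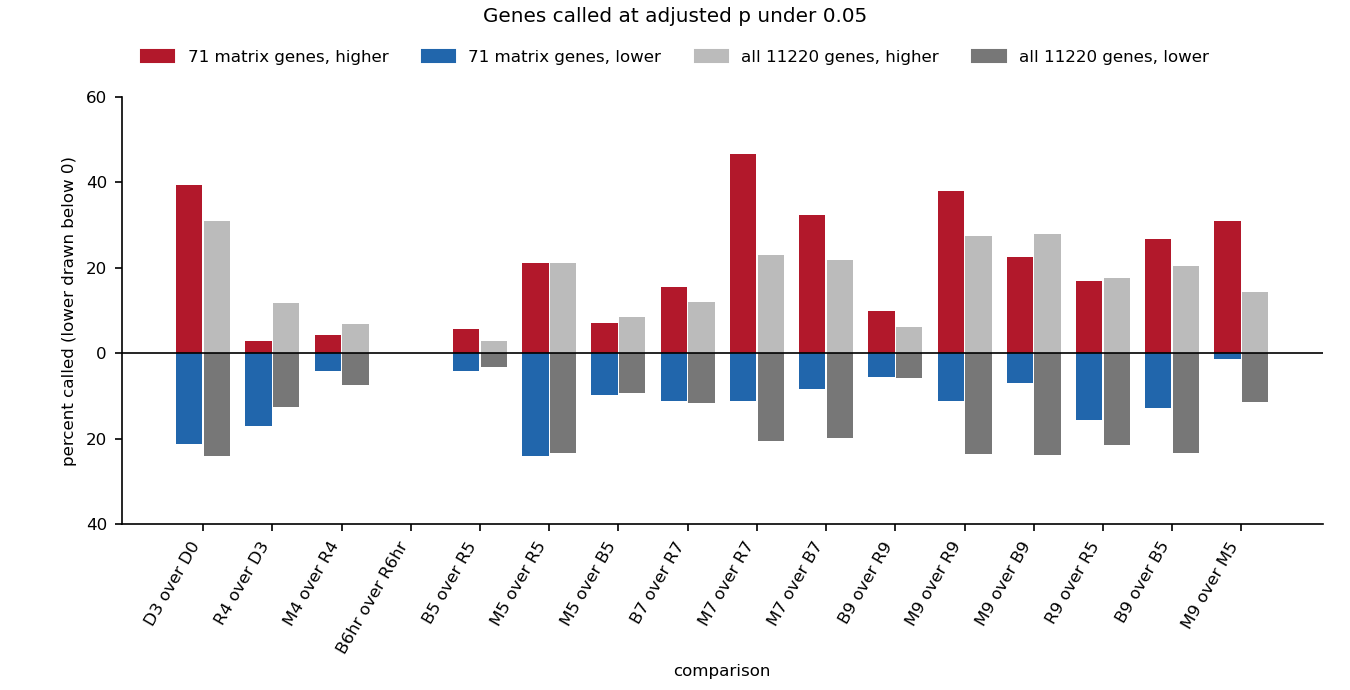
Percent of the 71 matrix genes called higher (red, above 0) and lower (blue, below 0) in each of 16 comparisons, beside the same percent of all 11220 genes (light grey higher, dark grey lower). In M7 over R7 33 of the 71 genes rose and 8 fell, beside 22.9% and 20.6% of all genes.

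From day 5 on, more matrix genes were called in M over R than on day 4, as were more of all genes (14.1% on day 4). The balance of the matrix genes moved from near even on day 5 to mostly higher on days 7 and 9. In M5 over R5 15 rose and 17 fell, where 44.3% of all genes were called, and the median log2 change was 0.06. In M7 over R7 33 rose and 8 fell, where 43.5% of all genes were called (22.9% higher and 20.6% lower), and the median was 1.00 against 0.01 for all genes. In M9 over R9 27 rose and 8 fell, where 51% were called (27.5% higher and 23.5% lower), and the median was 0.64 against 0.04. On all 3 days Adamts2, Adamts12, Adamtsl4, Col5a2, Col6a3 and Col13a1 were called higher, and Col2a1, Col18a1, Col19a1, Col22a1 and Lama1 were called lower. The plot of percent called sets these counts beside the whole table. The mesenchyme and neural progenitor marker sums given above moved with all 3 comparisons, and their part was not tested.

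In M over R, Col13a1 changed more than any other of the 71 genes on days 5, 7 and 9. It stood at 79.3, 114 and 89.5 in R5, 429, 326 and 265 in B5 and 1415, 1669 and 1569 in M5. On day 7 it stood at 42.7, 63.1 and 25.7 in R7, 111, 99.6 and 120.4 in B7 and 1349.6, 1659 and 1478 in M7. On day 9 it stood at 123, 111 and 90.4 in R9, 358, 291 and 252 in B9 and 1312, 1609 and 1463 in M9. On each day every M library was above every B library and every B library above every R library. The log2 change over RA alone was 4.04 (SE 0.23, adjusted p = 2.6e-14), 5.15 (SE 0.23, adjusted p = 3.2e-17) and 3.75 (SE 0.23, adjusted p = 1.1e-13) in the M groups. In the B groups it was 1.83 (SE 0.23, adjusted p = 1.2e-05), 1.40 (SE 0.23, adjusted p = 9.3e-05) and 1.46 (SE 0.23, adjusted p = 1.1e-04). The M groups were above the B groups by 2.21 (SE 0.23, adjusted p = 4.7e-08) on day 5, by 3.75 (SE 0.23, adjusted p = 2.3e-13) on day 7 and by 2.29 (SE 0.23, adjusted p = 6.9e-09) on day 9. The calls held in every alternative run.

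In M over R on days 5, 7 and 9 the other transmembrane collagens and multiplexins changed less than Col13a1. Col15a1, a multiplexin of vessel and muscle basement membranes, stood at 17.8, 15.3 and 11.1 in R7, 57, 91 and 137 in B7 and 118, 139 and 358 in M7, with both BMP4 groups above RA alone: 3.55 (SE 0.55, adjusted p = 4.1e-06) for M7 and 2.54 (SE 0.55, adjusted p = 0.0016) for B7. Col23a1 rose by 1.41 in M7, a call lost without M7 replicate 3 or R7 replicate 3 (adjusted p 0.0081 to 0.16 over 13 alternatives), and by 1.96 in M9. Col25a1 rose by 1.55 in M7 and 1.44 in M9, while on day 5 its mean was lower in M5 (84.1) than in R5 (227). Col18a1 went down with BMP4 in either schedule. It stood at 19812, 19107 and 15138 in R9, 11159, 9339 and 9158 in B9 and 9047, 10148 and 10338 in M9, so that neither BMP4 group reached RA alone. Its change over R9 was -0.86 (SE 0.18, adjusted p = 1.6e-04) in M9 and -0.86 (SE 0.18, adjusted p = 0.0018) in B9, and over R7 it was -0.92 (SE 0.18, adjusted p = 4.9e-04) in B7.

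**Figure D3:**
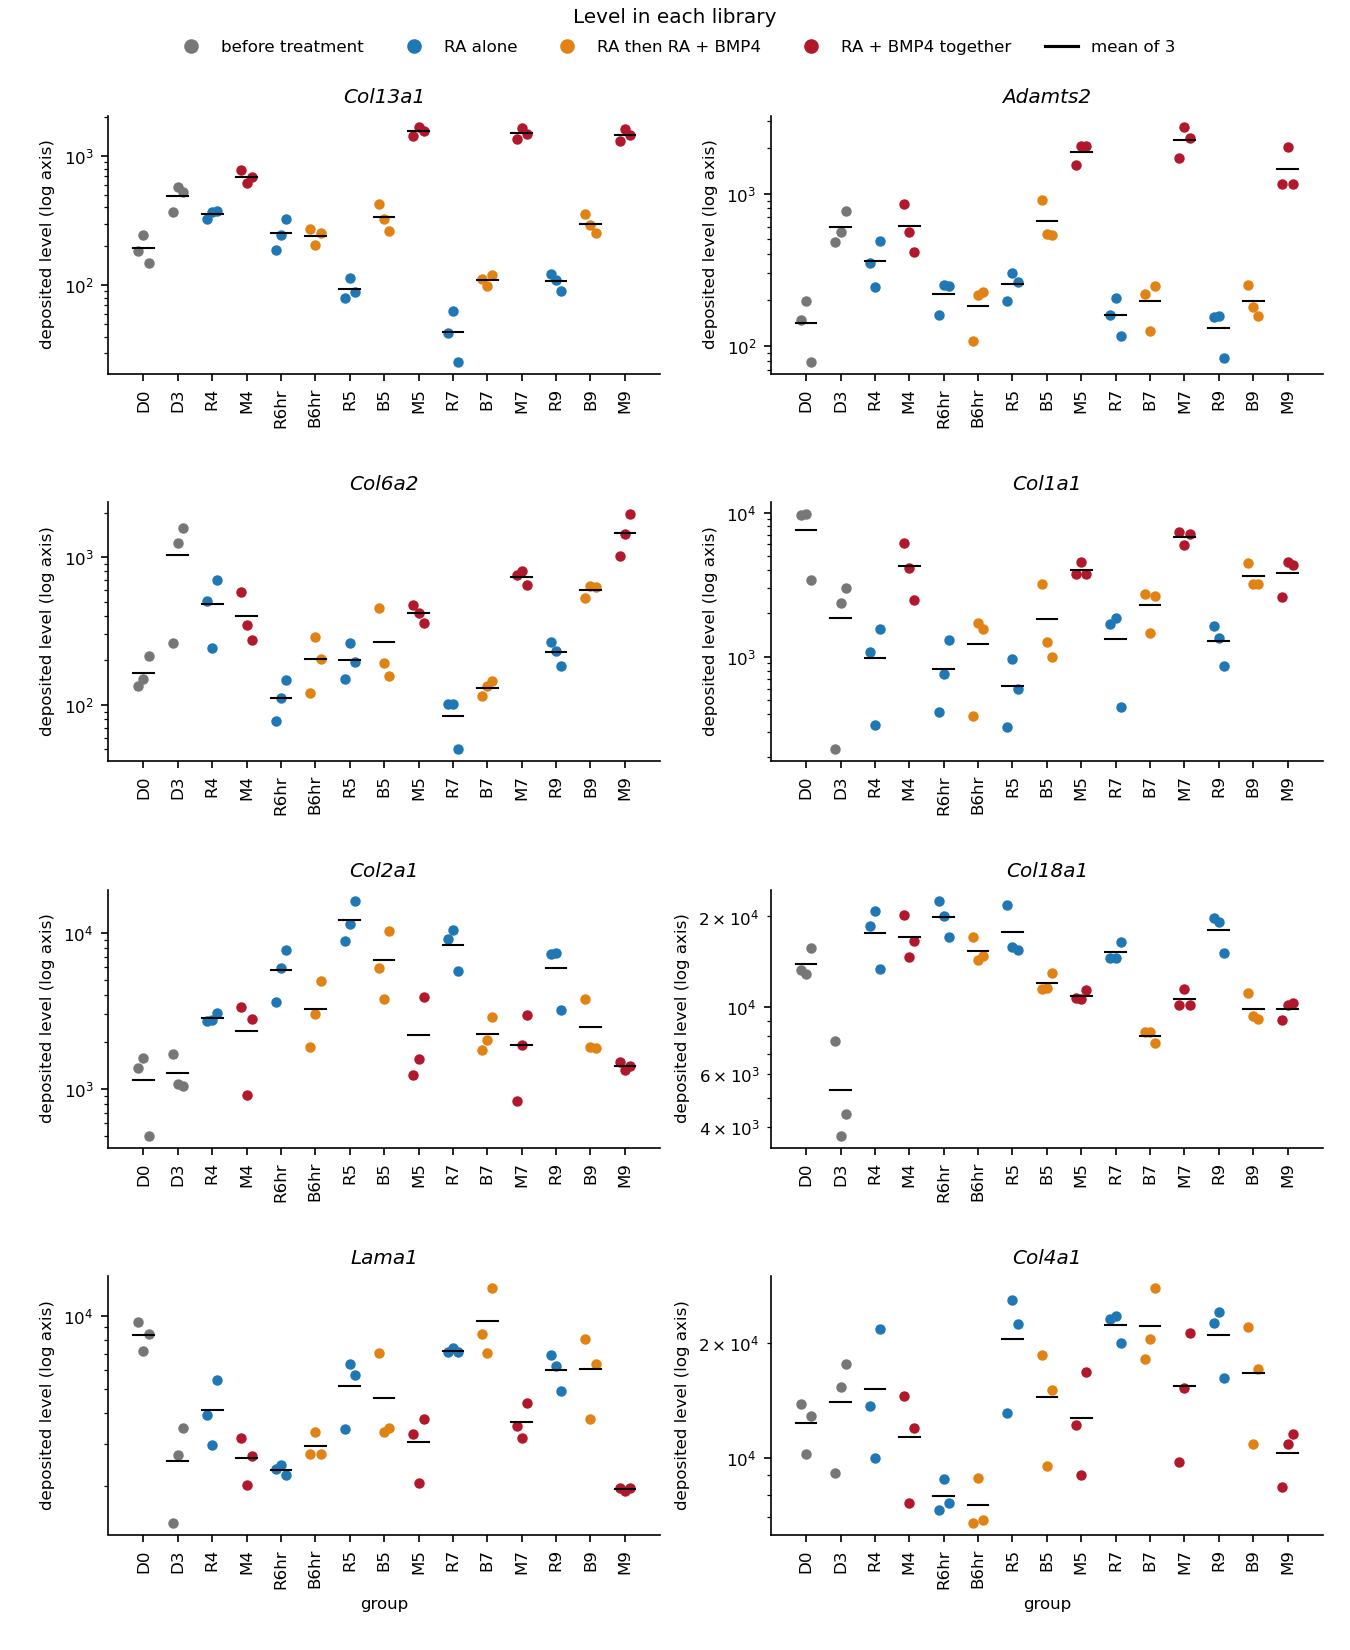
Deposited level (log axis) of 8 matrix genes in each library of the 15 groups, coloured by treatment, with a bar at the mean of 3. Col13a1 and Adamts2 are higher in M5, M7 and M9 than in every R and B library of the same day, and Lama1 is lower in M9 than in every R9 and B9 library.

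Most ADAMTS proteases were higher by day 9. Of the 16, 2 rose and 3 fell in M5 over R5, 10 rose and 1 fell in M7 over R7, and 13 rose and 0 fell in M9 over R9. Of all genes 21% rose and 23.3% fell on day 5, 22.9% and 20.6% on day 7, and 27.5% and 23.5% on day 9. The medians were 0.05, 1.22 and 1.37 on the log2 scale, beside medians of -0.02, 0.01 and 0.04 over all genes. The 3 that were not called on day 9 were Adamts3, Adamts8 and Adamts20.

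Adamts2, the main procollagen N-propeptidase, led the class. It stood at 196, 300.5 and 263 in R5 against 1551, 2049 and 2037 in M5, at 159, 208 and 116 in R7 against 1722, 2726 and 2320.3 in M7, and at 155, 157 and 83.2 in R9 against 1163, 2008 and 1158 in M9. No R library reached an M library on any of the 3 days, and the changes were 2.90 (SE 0.36, adjusted p = 9.9e-08), 3.82 (SE 0.36, adjusted p = 3.9e-10) and 3.45 (SE 0.36, adjusted p = 3.7e-09). B5 stood between, at 913, 543 and 536, while B7, at 220.5, 125 and 247, overlapped R7. B9, at 250.4, 179.8 and 158, lay just above R9. M exceeded B by 3.54 (SE 0.36, adjusted p = 4.1e-09) on day 7 and by 2.85 (SE 0.36, adjusted p = 2.3e-07) on day 9. Adamts3, which shares its activity, was not called in M over R, with -0.53 (SE 0.56, adjusted p = 0.45) on day 9. In M7 over B7, where Adamts2 was higher, Adamts3 was called lower (-1.50, SE 0.56, adjusted p = 0.032).

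Among the proteoglycan-cleaving members, Adamts9, also known for its role in primary cilia, stood at 792, 855 and 351 in R7, 913, 856 and 1260.5 in B7 and 4644, 4664 and 4139.8 in M7. Every M7 library was above every other day 7 library, with changes of 2.85 (SE 0.45, adjusted p = 5.5e-06) over R7 and 2.17 (SE 0.45, adjusted p = 3.0e-04) over B7. Adamts1 stood at 424, 387 and 183 in R9 and 1241, 2326 and 1727 in M9, a change of 2.45 (SE 0.52, adjusted p = 2.5e-04) after 2.35 (SE 0.52, adjusted p = 4.6e-04) on day 7. Adamts5, an aggrecanase, rose by 2.51 in M7 and 2.70 in M9, but without R7 replicate 3 the day 7 call ended (adjusted p = 0.16, range over 13 alternatives 0.011 to 0.16) and without R9 replicate 3 so did that of day 9 (0.053, range 0.0026 to 0.053). Adamts12, a protease of cartilage oligomeric matrix protein, rose by 2.18 (SE 0.57, adjusted p = 0.0024), 2.69 (SE 0.57, adjusted p = 2.8e-04) and 2.04 (SE 0.57, adjusted p = 0.0037) on days 5, 7 and 9.

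Adamts15 and Adamts8 were lower in M5. Adamts15 stood at 1894, 2678 and 3159 in R5, 1169, 752 and 1419.5 in B5 and 391, 413 and 400.4 in M5, with M5 below all other libraries of that day and a change of -2.65 (SE 0.36, adjusted p = 5.6e-07) over R5. On day 9 it stood at 433, 409 and 285 in R9 and 972, 1509 and 958 in M9, now with M9 above R9 (1.60) and above B9 (1.62, SE 0.36, adjusted p = 5.0e-04). Adamts8 stood at 254, 265 and 271 in R5 and 56.7, 48.3 and 51.9 in M5 (-2.31, SE 0.19, adjusted p = 7.8e-11) and was not called on days 7 and 9. It was also called lower in M4 over R4, given above, and in B5 over R5 (-0.93, SE 0.19, adjusted p = 0.0032). Adamts20 was lower, with a change of -1.43 (SE 0.26, adjusted p = 3.9e-05) on day 5 and -1.12 (SE 0.26, adjusted p = 7.0e-04) on day 7. Adamts19 stood at 78.8, 88.2 and 59.5 in R9 and 350.1, 527 and 543 in M9, with no overlap (2.62, SE 0.39, adjusted p = 2.1e-06).

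**Figure D4:**
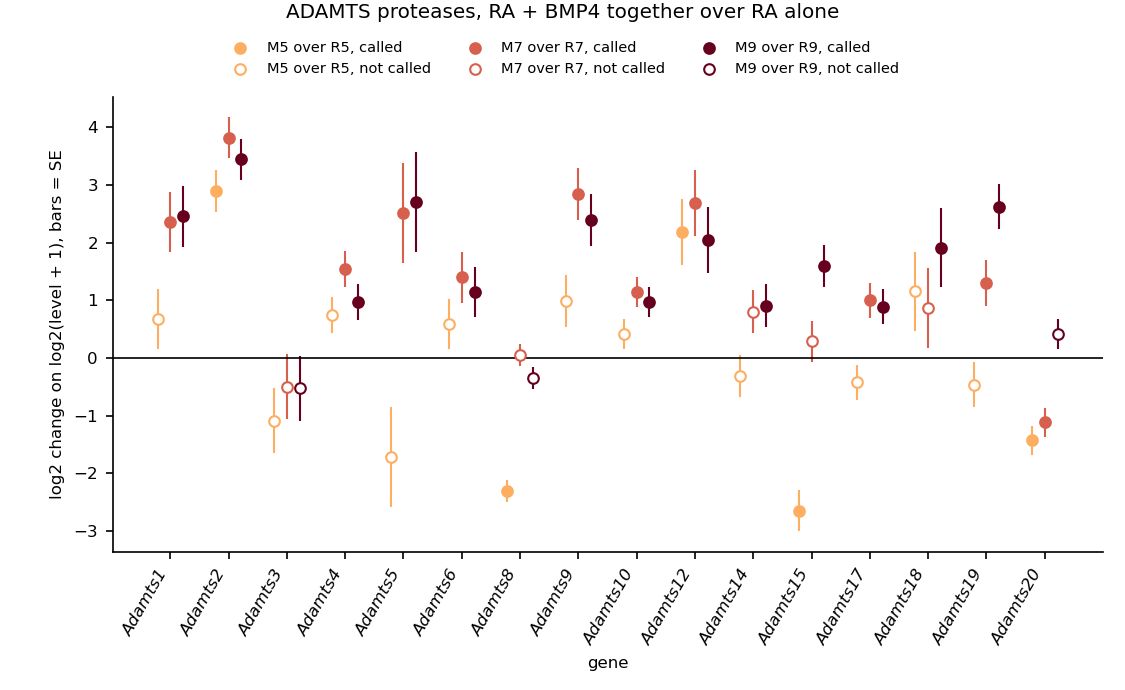
Log2 change of the 16 ADAMTS proteases in M over R on days 5 (light), 7 and 9 (dark), with the standard error as bars; filled points were called and open points were not. On day 9 13 of 16 were called higher and 0 lower, beside 27.5% and 23.5% of all genes. On day 5 2 were higher and 3 lower, beside 21% and 23.3% of all genes.

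The 4 ADAMTS-like proteins, which bind the matrix and lack the protease domain, did not move together. Adamtsl4, a fibrillin-binding protein, was called higher in both BMP4 schedules on days 5, 7 and 9. On day 9 it stood at 31.1, 24.8 and 21.5 in R9, 102, 97.6 and 91.8 in B9 and 119, 138 and 131 in M9, with changes of 1.89 (SE 0.40, adjusted p = 0.0027) in B9 and 2.30 (SE 0.40, adjusted p = 2.3e-05) in M9. On day 5 its B5 change of 1.30 lost its call under 6 of 13 alternatives (adjusted p 0.022 to 0.21), among them without B5 replicate 1 or 2 or R5 replicate 1 or 3. Adamtsl3 rose in M9 from 9.89, 12.6 and 13.3 to 84.4, 96.1 and 48.5 (2.53, SE 0.50, adjusted p = 1.0e-04). Adamtsl1 was highest in B9, at 776, 470.5 and 575 against 90.4, 126 and 153 in M9 (-2.29, SE 0.71, adjusted p = 0.0085).

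Fibrillar collagens divided by type under BMP4 given together with RA. Col5a2, a chain of the type V collagen that nucleates type I fibrils, stood at 32.2, 84.9 and 45 in R5 and 586, 442 and 199.8 in M5, at 99.2, 81 and 39.4 in R7 and 641, 352 and 272 in M7, and at 96.7, 66.1 and 59.1 in R9 and 266, 439 and 428 in M9. The groups did not overlap on any day, and the changes were 2.88 (SE 0.61, adjusted p = 2.9e-04), 2.51 (SE 0.61, adjusted p = 0.0011) and 2.33 (SE 0.61, adjusted p = 0.0021). Col1a1 stood at 322, 957 and 597 in R5 and 3759.9, 4564 and 3741 in M5 (2.81, SE 0.71, adjusted p = 0.0017), and at 1687, 1848 and 448 in R7 and 7341, 5947 and 7058 in M7 (2.59, SE 0.71, adjusted p = 0.0034). On day 9 it stood at 1636, 1336 and 854 in R9 and 2609, 4551 and 4295 in M9, groups that again did not overlap, with a change of 1.59 (SE 0.71, adjusted p = 0.060) that was not called. Col5a1, the partner of Col5a2, was called higher in M5 (1.19, adjusted p 0.013 to 0.14 over 13 alternatives), a call lost without M5 replicate 2 or 3 or R5 replicate 1. It was also called higher in M7 (1.09, adjusted p 0.021 to 0.28), a call lost without R7 replicate 3 or any 1 of the M7 replicates. The partner chain of Col1a1, Col1a2, was not called on any of these days, with 1.16, 0.75 and 0.64.

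Col3a1 had one of the widest spreads between replicates. In R7 it stood at 5479.6, 7583 and 347 and in M7 at 8882, 12375 and 17531, with every M7 library above every R7 library and a change of 2.35 (SE 1.17, adjusted p = 0.10) that was not called. In B5, replicate 1 stood apart at 9952, 1596 and 1598. Col24a1, a fibrillar collagen of developing bone and cornea, rose in M9 from 31.4, 35.4 and 18.6 to 166, 242 and 224 (2.87, SE 0.42, adjusted p = 1.5e-06). Col27a1, a collagen of cartilage, had the smallest within-group spread of the 71 genes (0.17 on the log2 scale) and was called in 12 of the 16 comparisons: it fell from 677, 838 and 786 to 362, 349.8 and 443 in M5 (-0.99, SE 0.14, adjusted p = 8.9e-07) and was higher in M9, at 1162, 1598 and 1389.8, than in R9, at 586, 594 and 472 (1.32, SE 0.14, adjusted p = 5.0e-09).

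In M over R Col2a1 fell on days 5, 7 and 9, when Col5a2 rose. It stood at 8848, 11359.6 and 15909 in R5, 5967, 3768 and 10207 in B5 and 1214, 1552 and 3848 in M5. On day 7 it stood at 9122, 10364 and 5676 in R7, 1770.0, 2045 and 2859.7 in B7 and 827, 1894 and 2969 in M7. On day 9 it stood at 7293, 7450.0 and 3177 in R9, 3781, 1858 and 1828 in B9 and 1474, 1324 and 1387 in M9. M lay below R on all 3 days with no overlap. The change was -2.59 (SE 0.51, adjusted p = 1.1e-04) on day 5 and -2.28 (SE 0.51, adjusted p = 4.8e-04) on day 7, and on day 9 Col2a1 fell by 2.00 (adjusted p = 0.0016). B7 lay below R7 (-1.90, SE 0.51, adjusted p = 0.0081). Col11a2, which joins type II fibrils, fell in M5 (-1.53) and in B9 (-1.29, SE 0.30, adjusted p = 0.0054). Col5a3 fell in M7 (-1.23, SE 0.29, adjusted p = 7.4e-04) and in B9 (-1.13, SE 0.29, adjusted p = 0.0092).

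All 3 main chains of collagen VI, which form beaded microfilaments around cells, rose in M7 and M9 over RA alone. In M5 over R5 Col6a3 was the 1 of them called, in M4 over R4 none was, and in M9 over B9 Col6a2 was the 1 called. Col6a2 stood at 101, 100.5 and 50.3 in R7, 115, 133 and 144 in B7 and 755, 800.3 and 647 in M7, and at 266, 231 and 183 in R9, 529.6, 638 and 624 in B9 and 1017, 1425 and 1953 in M9. M exceeded R by 3.18 (SE 0.46, adjusted p = 1.4e-06) on day 7 and 2.65 (SE 0.46, adjusted p = 2.0e-05) on day 9, and no library overlapped. Col6a1 rose by 3.22 (SE 0.72, adjusted p = 5.3e-04) and 2.40 (SE 0.72, adjusted p = 0.0067) on the same days, and on day 7 its lowest M7 library was 744 against at most 132 in R7. Col6a3 rose from 2.6, 25 and 7.24 in R5 to 159.8, 129.7 and 55.1 in M5 (3.53, SE 0.95, adjusted p = 0.0030) and from 61.2, 67.6 and 9.88 to 898, 299.6 and 386 on day 7 (3.71, SE 0.95, adjusted p = 0.0019), while on day 9 its call at 2.57 ended under 4 of 13 alternatives, without M9 replicate 2 or 3 or R9 replicate 2 or 3 (adjusted p 6.6e-04 to 0.077). The other chains, Col6a4, Col6a5 and Col6a6, and the anchoring fibril collagen Col7a1 were not called in M over R on any day. Col8a2 was called higher in M7 (2.34), a call lost without R7 replicate 3 or any 1 of the M7 replicates (adjusted p 0.016 to 0.26). Col26a1 was called in no comparison in the fit of all libraries.

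Fibril-associated collagens also split. Col9a1, Col9a2 and Col9a3, the 3 chains of the type IX collagen that coats type II fibrils, all rose in M5 (2.06, 1.03 and 0.98, the last lost without R5 replicate 3, with an adjusted p of 0.0046 to 0.051 over 13 alternatives), in the comparison in which Col2a1 fell. Col19a1, a minor collagen of basement membrane zones, stood at 52.3, 68.6 and 25.3 in R7 and 3.84, 4.44 and 2.74 in M7, with no overlap (-3.32). Col22a1, a collagen of tissue junctions, fell from 944, 949 and 465 in R9 to 146, 173 and 199 in M9 (-2.12, SE 0.37, adjusted p = 2.0e-05). Col16a1 rose in M7 and M9 (2.63 and 1.69). Col12a1 fell in M5 (-2.56), a call that ended without M5 replicate 3 or R5 replicate 2 or 3 (adjusted p 0.012 to 0.11). Col14a1 was called in no comparison in the fit of all libraries. It ranged from 49.3 to 10557 over the libraries, with its highest value in B5 replicate 1. Col20a1 was not called in M over R.

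Among the network collagens none was called higher in M than in R on day 5, 7 or 9. On day 5, 3 of 5 fell, where 23.3% of all genes were called lower. Col4a6 stood at 1609, 3508 and 3129 in R5 and 228, 352 and 807 in M5, and Col4a5 stood at 2647, 7053 and 6735 in R5 and 642, 891 and 1716 in M5. All M5 libraries lay below all R5 libraries for both genes, with changes of -2.69 (SE 0.61, adjusted p = 6.2e-04) and -2.33 (SE 0.65, adjusted p = 0.0043). Col4a4, at 42.6, 36.9 and 52.4 in R5 and 6.54, 7.07 and 4.63 in M5, fell by 2.67 on the log2 scale. On day 9 the widely expressed chains were lower instead: Col4a1 stood at 22489.6, 24076 and 16138 in R9 and 8391, 10881 and 11514 in M9, and Col4a2 stood at 14905, 14612 and 9341 in R9 and 5599, 7673 and 7551 in M9. Neither pair of groups overlapped, and the changes were -1.02 (SE 0.32, adjusted p = 0.0085) and -0.88 (SE 0.33, adjusted p = 0.025), the latter lost without M9 replicate 1 or R9 replicate 1 or 2 (adjusted p 0.0059 to 0.10 over 13 alternatives).

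Laminin chains moved in both directions. Lama1 stood at 6916, 6237 and 4926 in R9, 8041, 3777 and 6345 in B9 and 1962, 1914 and 1978 in M9. All M9 libraries were below all others of that day, with a change of -1.61 (SE 0.30, adjusted p = 6.0e-05) over R9 and -1.57 (SE 0.30, adjusted p = 1.2e-04) over B9. On day 7 the changes were -0.98 (SE 0.30, adjusted p = 0.0090) over R7 and -1.33 (SE 0.30, adjusted p = 7.9e-04) over B7, and on day 5, when M5 and R5 overlapped, the change of -0.77 lost its call under 7 of 13 alternatives (adjusted p 0.011 to 0.23), among them without M5 replicate 1 or 2 or R5 replicate 2 or 3. Lama2, the alpha chain of muscle and nerve basement membranes, stood at 12.5, 20.7 and 14.3 in R5, 91.4, 40.8 and 37.2 in B5 and 93, 128 and 127 in M5, and rose by 2.81 (SE 0.38, adjusted p = 4.8e-07) in M5 and 2.25 (SE 0.38, adjusted p = 1.4e-05) in M7. Lama5 rose by 0.94 (SE 0.22, adjusted p = 7.8e-04) in M7 and 0.71 (SE 0.22, adjusted p = 0.0081) in M9. Lamc3 rose in M9 (1.38). Its call in M7 (1.26) ended without M7 replicate 2 or R7 replicate 3 (adjusted p 0.0058 to 0.098). Lama3 rose in M5 (1.90) and M7 (1.48, lost without M7 replicate 1 or R7 replicate 1, adjusted p 0.0066 to 0.055), and Lamb2, Lamb3, Lamc1 and Lama4 were not called in M over R on these days. Lama4, an alpha chain of vessels and mesenchyme, stood at 176, 241 and 67 in R7 and 178, 272 and 410.2 in M7.

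BMP4 given as a later pulse moved fewer matrix genes than BMP4 given together with RA, and the same held for all genes. Of all genes 44.3% were called in M5 over R5, 43.5% in M7 over R7 and 51% in M9 over R9. The lower counts under the pulse are therefore not particular to the matrix genes, and several of them rested on single libraries. In B5 over R5 4 rose and 3 fell, where 5.99% of all genes were called (2.76% higher and 3.23% lower), and without B5 replicate 1 the count was 2, without R5 replicate 3 it was 3 and without B5 replicate 2 it was 4. In B7 over R7 11 rose and 8 fell, where 23.7% were called (12.1% higher and 11.6% lower), and the count was 11 without B7 replicate 1, B7 replicate 3 or R7 replicate 3 and 12 without B7 replicate 2 or R7 replicate 1. In B9 over R9 7 rose and 4 fell, where 11.8% were called (6.12% higher and 5.71% lower); it was 6 without B9 replicate 1 or 2 or R9 replicate 2 or 3 and 7 without B9 replicate 3, and quantile normalization gave 13 higher and 4 lower. Col13a1 and Adamtsl4 were the 2 genes called on all 3 days, both higher. Adamts4 stood at 86.6, 89.7 and 86.1 in B7 against 39.3, 34.7 and 22.7 in R7, with no overlap (1.45, SE 0.31, adjusted p = 0.0015). M7, at 99.1, 83.1 and 98.7, overlapped B7, and the highest group mean of Adamts4 was in M9. The falls in B9 included Col18a1, Col11a2 and Col5a3, given above.

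The 2 BMP4 treatments were compared directly in M over B, on days 5, 7 and 9. M had BMP4 for 48 hours from day 3 and B for 24 hours from day 4, both with RA. Onset and length of BMP4 therefore cannot be told apart. On the first of these days, day 5, 5 rose and 7 fell, where 17.8% of all genes were called (8.57% higher and 9.23% lower); the count was 5 without B5 replicate 3 and 7 without M5 replicate 1 or 2. On day 7 23 rose and 6 fell, where 41.6% were called (21.7% higher and 19.9% lower), and on day 9 16 rose and 5 fell, where 51.5% were called (27.8% higher and 23.7% lower), with a count of 13 without M9 replicate 2. In a fit of the M9 and B9 libraries alone 20 were higher and 15 lower. Beside Col13a1, Adamts2, Adamts9, Col6a2 and Lama1, already given, Lama2 was higher in M7 than in B7 (2.22, SE 0.38, adjusted p = 2.7e-05) and Col9a1 rose from 16.7, 35.3 and 24.4 in B7 to 66.2, 193 and 170.2 in M7 (2.36, SE 0.66, adjusted p = 0.0047). Adamts8 was lower in M5 than in B5 (-1.38, SE 0.19, adjusted p = 5.3e-06). Col22a1 was lower in M9 than in B9 (-1.72, SE 0.37, adjusted p = 3.4e-04), and Col24a1 was higher (1.74, SE 0.42, adjusted p = 0.0011). The M and B comparisons with RA alone share the R libraries.

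The change from day 5 to day 9 was tested within each treatment. Under RA alone 12 rose and 11 fell, where 39.1% of all genes were called; quantile normalization gave 9 higher and 13 lower, and the count was 12 without R5 replicate 3 and 14 without R9 replicate 1 or 3. Under the BMP4 pulse 19 rose and 9 fell, where 43.7% were called (20.4% higher and 23.2% lower), with 13 without B5 replicate 3 and 17 without B5 replicate 2. Under the combined treatment 22 rose and 1 fell, where 25.8% were called, and quantile normalization gave 21 higher and 4 lower. The class of collagen VI and the beaded and short-chain collagens had 8 of 10 members higher from B5 to B9. Col6a3 rose there from 36.2, 15.4 and 6.89 to 335, 301 and 297 (4.20, SE 0.95, adjusted p = 6.9e-04), and Col6a6 from 21, 5.53 and 3.15 to 95, 59.8 and 101 (3.32, SE 0.74, adjusted p = 6.0e-04), with no overlap for either. Col1a2 rose from 1573, 740.0 and 557 to 4354, 3730.3 and 4046 (2.22, SE 0.53, adjusted p = 0.0013).

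Under RA alone the 3 largest falls from day 5 to day 9 were those of the proteases Adamts15, Adamts5 and Adamts1. Adamts15 went from 1894, 2678 and 3159 to 433, 409 and 285 (-2.77, SE 0.36, adjusted p = 1.2e-06) and Adamts1 from 926, 1940.1 and 2109 to 424, 387 and 183 (-2.32, SE 0.52, adjusted p = 8.1e-04). In the M groups Col27a1 rose from 362, 349.8 and 443 to 1162, 1598 and 1389.8 (1.84, SE 0.14, adjusted p = 9.7e-11), Adamts19 by 2.26 (SE 0.39, adjusted p = 5.7e-05) and Col6a2 by 1.77 (SE 0.46, adjusted p = 0.0046). The difference between the 2 courses was tested as an interaction, the change from M5 to M9 minus the change from R5 to R9. Of the 71 genes 16 had a positive and 5 a negative difference, a share of 29.6% where 38.9% of all genes were called, and the median was 0.55 against 0.09 over all genes. Adamts15 had a difference of 4.25 (SE 0.51, adjusted p = 2.1e-07), falling under RA alone and standing higher in M9 than in M5, and Col24a1 one of 3.19 (SE 0.59, adjusted p = 1.1e-04).

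**Figure D5:**
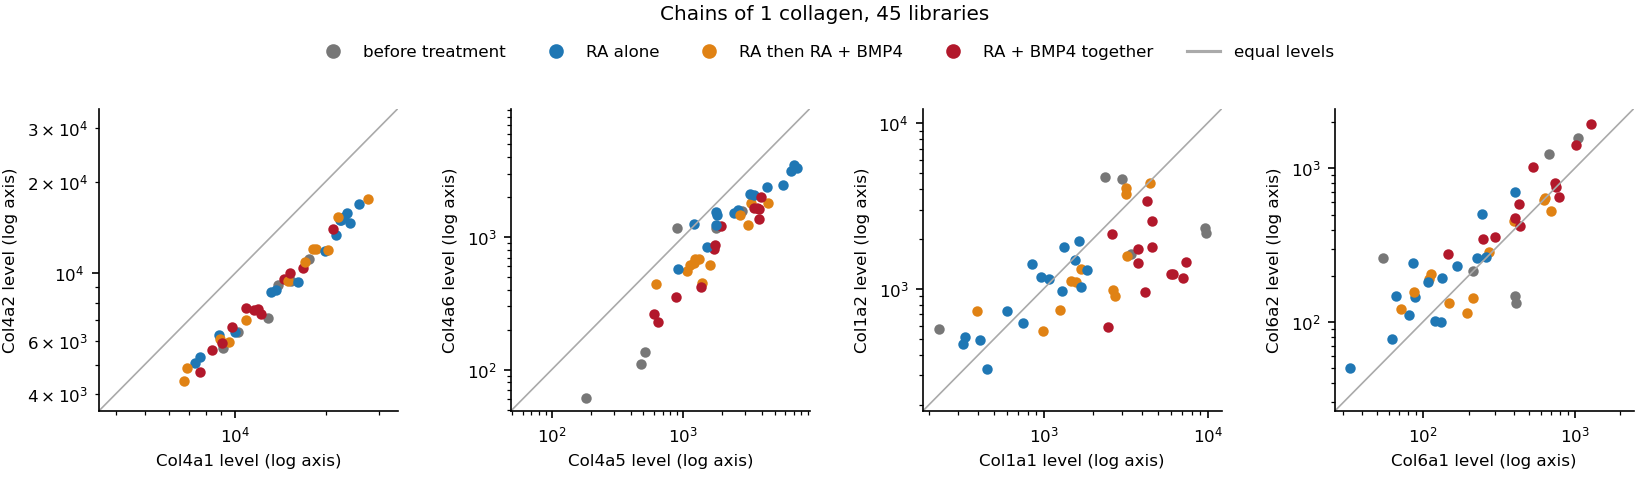
Levels (log axes) of 4 pairs of chains in the 45 libraries, coloured by treatment, with a line of equal levels as a guide to slope. For Col4a1 and Col4a2 the log2 ratio spanned 0.36 over all libraries, for Col4a5 and Col4a6 2.49, for Col1a1 and Col1a2 3.91 and for Col6a1 and Col6a2 3.88.

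Chains that assemble into 1 collagen were compared library by library, as a description. Col4a1 and Col4a2, which share the start region printed above, each spanned about 2 log2 units over the 45 libraries (2.04 and 2.00), while the log2 ratio of the 2 levels stayed between 0.49 (R6hr replicate 2) and 0.86 (D0 replicate 3). Col4a5 and Col4a6, whose RefSeq starts lie 1343 bases apart, spanned 5.33 and 5.84, and their log2 ratio ran from -0.36 in D3 replicate 1 to 2.13 in D0 replicate 2. Col1a1 on chromosome 11 and Col1a2 on chromosome 6 spanned 5.41 and 3.86, with a log2 ratio from -1.31 in D3 replicate 1 to 2.60 in M7 replicate 3. Col6a1 and Col6a2 lie on chromosome 10 with starts 102538 bases apart, and their ratio spanned 3.88, again lowest in D3 replicate 1. The ratio of Lama1 to Lamc1, the alpha and gamma chains of laminin-111, spanned 2.02 and was lowest in M5 replicate 2. These 2 genes lie on chromosomes 17 and 1. Whether the start regions have a part in any of these ratios was not tested. The plot of chain pairs shows the narrow line of Col4a1 and Col4a2 beside the wider clouds of the others.

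Genes that fold, bind, sense and cut the matrix were counted in the same comparisons, where 43.5% of all genes were called in M7 over R7 and 51% in M9 over R9. The share called on day 9 was close to that background for folding genes (52.6%) and receptors (50%). Of 19 genes of collagen folding and crosslinking 11 rose and 1 fell in M7 over R7, and 7 rose and 3 fell in M9 over R9. Serpinh1, the collagen chaperone Hsp47, was called higher in both (0.85 and 0.84), calls that ended with quantile normalization, without M7 replicate 2 or R7 replicate 3 on day 7 (adjusted p 0.0063 to 0.14) and without M9 replicate 2 or R9 replicate 3 on day 9 (0.0069 to 0.17). Pcolce, which enhances C-propeptide removal, rose by 3.41 (SE 0.73, adjusted p = 2.9e-04) in M5. Of 19 matrix partners 10 rose and 2 fell in M7 and 11 rose and 3 fell in M9. Fibronectin (Fn1) rose by 1.71 (SE 0.27, adjusted p = 6.5e-06) in M7, Fbln2 by 4.06 (SE 0.58, adjusted p = 1.0e-06) and tenascin C (Tnc) by 2.89 (SE 0.82, adjusted p = 0.0048), while the neural proteoglycan neurocan (Ncan) fell by 2.49 (adjusted p = 1.8e-05).

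Of 11 matrix proteases and inhibitors all were called in M7 over R7 (9 rose and 2 fell), and 8 rose and 2 fell in M9 over R9. Mmp2, gelatinase A, rose by 3.02 (SE 0.29, adjusted p = 8.9e-10) in M7 and 2.54 (SE 0.29, adjusted p = 2.7e-08) in M9, and Papln, an ADAMTS-like basement membrane protein, by 2.90 (SE 0.42, adjusted p = 1.3e-06) and 1.71 (SE 0.42, adjusted p = 0.0011). Of 18 matrix receptors 10 rose and 3 fell in M7 and 8 rose and 1 fell in M9. The collagen-binding integrin alpha-1 (Itga1) rose by 2.71 (SE 0.35, adjusted p = 2.0e-07) in M7, and integrin beta-8 (Itgb8), a receptor of neural progenitors that activates TGF-beta, had its largest fall in M5 (-4.33, SE 0.54, adjusted p = 1.2e-07).

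Some members were called rarely. In the fit of all libraries Col3a1, Col14a1 and Col26a1 were called in 0 of the 16 comparisons. Col14a1 and Col26a1 were called in B6hr over R6hr in the blocked fit of 6 libraries. Col1a2, Col4a1, Col4a2, Col11a1 and Lamb2 were called in 1 each, and Col4a5, Col6a4, Col7a1, Col8a2, Col12a1 and Lamb3 in 2 each. Col11a1, which joins type II fibrils, ranged from 439 to 2945 over the 45 libraries, and Lamb2, a laminin beta chain of synapses and kidney, from 894 to 3095. Adamts10, a fibrillin-associated protease, was called in 4 comparisons, with 1.14 in M7 over R7.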

How the data were processed

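Bulk RNA from 45 libraries was analysed, 3 in each of 15 groups taken from the sample labels. Per the labels' protocols, RNA was prepared with the RNeasy mini kit, libraries with the NuGEN Universal plus mRNA kit, and sequencing was on a NovaSeq. The submitters' processing notes name Picard, edgeR and the mm10 build without roles, while the aligner, the counter and the annotation were not given in the sources used here. Of the processed files, the authors deposited 1 table of 11220 genes with a normalized signal (level) per library, by a method not stated, and no library's raw counts were used here. The deposited table also holds the authors' log2 fold changes and p-values with FDR for 12 comparisons, of which the FDR was used for the pulse comparison at 6 hours. Its p-values and FDR imply that the authors tested 16014 genes. Per the file headers there are columns named fpkm and rank; they were treated as a score of the authors and not used, because the former follow the level to the power 0.3.

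Levels were tested as log2(level + 1) with limma 3.58.1 (R 4.3.3), with a mean-dependent prior and robust estimation, in 1 fit of all 45 libraries and no covariate, and Benjamini-Hochberg adjustment over 11220 genes. A gene was called at an adjusted p under 0.05. The scripts were checked on simulated data with 100 changed genes. Of 2-fold changes 59% were recovered in M5 over R5 and 53% in M9 over R9. Of 4-fold changes 91% and 88% were recovered, with 6 and 5 false calls. A gene that was not called may therefore still have changed. In the real comparisons 44.3% (M5 over R5) and 51% (M9 over R9) of all 11220 genes were called. The simulation changed far fewer genes, so its recovery rates need not hold there. Tables were made with Python 3.11.15 and pandas 2.3.3. Alternatives were a pseudocount of 0.1 or 5, a filter (level 10 or more in 3 libraries), quantile normalization, the compared libraries alone, the replicate number as a block, adjustment over 16014 genes, and leaving out each library. Leaving out 2 libraries from D3 over D0, and the block with 6 libraries for B6hr over R6hr, were chosen after seeing the data. Same-numbered libraries deviated together in B6hr and R6hr (correlations 0.586, 0.189 and 0.465, against at most 0.146 between different numbers), and this was the 1 comparison of 16 in which all 3 exceeded 0.1.

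The genes and lists were chosen with earlier results of these data known. Genes were named from a list of well-known chains and proteases, from up to 6 called genes in each direction of a comparison whose groups did not overlap and whose higher mean was at least 50, and where a class was summed up. Partner genes, and which of these calls received full values, were picked after their values were seen. One of the genes counted is not reported here by name. Coordinates and promoters come from GRCm38 annotation and RefSeq.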

Additional observations from a re-analysis of the deposited data

Results flagged for a closer look

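The change from day 5 to day 9 differed between the combined treatment and RA alone for 21 of the 71 genes, by limma's test of the difference itself (change from M5 to M9 minus change from R5 to R9, log2 scale), a share of 29.6% where 38.9% of all genes were called. Among the ADAMTS proteases the difference was 4.43 for Adamts5, 4.25 for Adamts15, 3.09 for Adamts19, 1.96 for Adamts8, 1.85 for Adamts20 and 1.31 for Adamts17, and it was 3.27 for Adamtsl3. Among collagens it was 3.19 for Col24a1, 2.84 for Col4a4, 2.76 for Col4a6, 2.75 for Col25a1, 2.74 for Col4a5, 2.41 for Col23a1, 2.32 for Col27a1 and 1.87 for Col16a1, and it was 1.49 for the laminin chain Lamc3. In the other direction it was -2.31 for Col9a1, -2.14 for Lama2, -1.36 for Col9a2 and -0.76 for Lamc1. The calls of Adamts17, Col16a1, Col4a5, Col4a6, Col9a1, Lamc1 and Lamc3 ended under at least 1 alternative, and those of the other genes given here held in all that were run. Col9a1 lost its call under 14 of its alternatives.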

How the results depend on the processing

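Among 395 called values of single genes, 229 kept their call under every alternative and 166 lost it under at least 1, 64 of them only by leaving out a library. No value changed direction. The counts of called genes moved by over 1.5 times in these cases. In fits of just the compared libraries, R4 over D3 had 6 calls, with 2 in M4 over R4, 5 in B6hr over R6hr, 1 in B5 over R5, 6 in M5 over B5, 11 in B7 over R7, 20 in B9 over R9, 35 in M9 over B9 (20 higher and 15 lower), 40 in M9 over M5 and 32 in the difference of time effects. Adjustment over 16014 genes left 4 in B5 over R5, and quantile normalization gave 17 in B9 over R9. Leaving out 1 library gave 6 to 31 in R4 over D3, 3 to 7 in M4 over R4, 2 to 7 in B5 over R5, 5 to 14 in M5 over B5, 11 to 15 in B7 over R7, 6 to 9 in B9 over R9, 13 to 22 in M9 over B9, 12 to 22 in R9 over R5 and 13 to 26 in B9 over B5. It gave 24 to 33 in M5 over R5, 31 to 44 in M7 over R7 and 30 to 35 in M9 over R9. Where 2 libraries were left in a group, the spread was pooled over all groups. The causes were not tested.

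With the replicate block in 6 libraries, 25 genes were called in B6hr over R6hr. The block over all libraries gave 31 in M5 over R5, 41 in M7 over R7 and 35 in M9 over R9, and ended 19 of the called or printed values. In the other comparisons same-numbered libraries did not deviate together throughout, and the labels do not say what a replicate number marks. The labels state 30000000 reads per sample, but the table gives no counts, so counting error could not be separated from the spread between libraries.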
